A study of Mus musculus with 9 samples.

Results

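Iron is stored, moved and recovered from haem by a small set of proteins, and 10 genes of that set are described here in mouse microglia. The genes were chosen by name, by a rule that uses no measured value although earlier results of these data were known, and they are 10 of the 18571 genes in the deposited table. They are Ftl1 and Fth1, the light and heavy chains of ferritin; Ncoa4, the receptor that carries ferritin to autophagy; Tfrc, the transferrin receptor; Slc11a2 and Slc11a1, divalent metal transporters of the endosome and phagosome; Slc40a1, the iron exporter ferroportin; Cp, the copper ferroxidase ceruloplasmin; and Hmox1 and Hmox2, the inducible and constitutive haem oxygenases. All 10 passed the filter on low counts.

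Microglia, the immune cells resident in the brain, were taken from cortex and hippocampus of C57BL/6J mice at 9 months of age, in 3 groups of 3 libraries. The first group was wild type (WT). The second was APP/PS1, a transgenic model that forms amyloid deposits. The third, called cKO here (Cx43 cKO in the plots), was APP/PS1:Cx3cr1-CreER:Cx43-flox/flox, in which a tamoxifen-activated recombinase driven from Cx3cr1, a gene of microglia and other myeloid cells, acts on a floxed allele of the gap junction gene Gja1. According to the labels every group received tamoxifen by gavage, 0.1 mg/g for 5 days at 8 months, while the recombinase and the floxed allele are named for cKO alone, so that recombinase, floxed allele and loss of Cx43 cannot be told apart. Cells were captured by panning on CD45, a protein shared by all leukocytes. How many animals went into a library is not stated, and p-values measure only the spread between these libraries, which may be technical.

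In microglia, as in other macrophages, iron arrives bound to transferrin or inside engulfed red cells and debris. Ferritin holds it in a mineral core, ferroportin releases it, and haem oxygenase frees it from haem. Cells match these proteins to their iron largely after transcription: when iron is scarce, iron regulatory proteins bind a hairpin called the iron-responsive element, which blocks translation when it lies in the 5′ untranslated region and stabilises the message when it lies in the 3′ untranslated region. Message levels are therefore only part of how these genes are set.

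Sequences that match this hairpin are shown because it is the element through which ferritin, ferroportin and transferrin receptor messages are known to be controlled. Each was found on the sense strand of the gene's lowest-numbered transcript (GENCODE mouse release 21, build GRCm38.p6) as a C, 5 bases, the loop CAGTGN and 5 more bases, where the 5 bases before and the 5 after the loop had to pair, G with T allowed. The pattern was searched alone, with no other motif that could overlap it. Capitals mark the loop of 6 bases. Ftl1 carries 1 site in its 5′ untranslated region, at chr7:45459778-45459807 on the minus strand, Fth1 carries 1 in the same region at chr19:9982732-9982761 on the plus strand, and Slc40a1 carries 1 there at chr1:45925464-45925493 on the minus strand.
Ftl1: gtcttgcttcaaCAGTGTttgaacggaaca
Fth1: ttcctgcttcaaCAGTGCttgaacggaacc
Slc40a1: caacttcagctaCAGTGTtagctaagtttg

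Tfrc carries 4 sites, all in its 3′ untranslated region on the plus strand of chromosome 16, at chr16:32631219-32631248, chr16:32631598-32631627, chr16:32631663-32631692 and chr16:32631710-32631739, given here in that order.
Tfrc site 1: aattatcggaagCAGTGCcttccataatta
Tfrc site 2: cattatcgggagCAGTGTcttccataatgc
Tfrc site 3: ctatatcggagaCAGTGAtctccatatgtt
Tfrc site 4: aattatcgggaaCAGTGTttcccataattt

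The ferritin sites were identical at 26 of 30 bases, while each shared 13 of 30 with the ferroportin site. A match was present in 4 of the 10 members and in 237 of 21291 lowest-numbered protein-coding transcripts (1.11%). A match is a description of the letters and not a measured binding site, and every member was searched in this transcript alone, so that elements of other isoforms were not covered.

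Depth and labels were examined first. Total estimated counts ran from 18907681 to 19565354 per library, and 14696 genes were tested. Gja1, the targeted gene, was lower in cKO relative to APP/PS1, with a log2 change of -0.56 (edgeR adjusted p = 7.95e-09) but was not lost: its counts were 514, 484 and 539 in cKO against 727, 688 and 788 in APP/PS1. Against WT, the log2 change of Gja1 was -0.32 in cKO (edgeR adjusted p = 7.62e-05) and 0.24 in APP/PS1 (edgeR adjusted p = 0.000662). Ddx3y, a gene of the Y chromosome, had at least 4137 counts in every WT and APP/PS1 library and at most 2.34 in any cKO library, so sex-linked expression and Cx43 genotype cannot be told apart. Microglial markers (8 genes) summed to 18741 CPM (read counts scaled to library size) in WT, 21801 in APP/PS1 and 18987 in cKO. Markers of other cell types were also detected. None of those in the table was at 0 in a group, although some were close to it: Car1 and Kel, erythroid markers, averaged 0.018 CPM in APP/PS1. Neutrophil markers (13 genes) summed to 3222, 971 and 9554 CPM, monocyte markers (6 genes) to 387, 98.3 and 707 CPM, and erythroid markers (11 genes) to 1276, 263 and 108 CPM in WT, APP/PS1 and cKO. Astrocyte markers (10 genes) summed to 494, 697 and 536 CPM in the same order, and their part in the Gja1 values was not tested. Because these are bulk libraries, fewer cells of a type and less RNA per cell cannot be told apart.

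With TMM scaling, a correction for library composition, every member differed between APP/PS1 and WT, by less than 1.5-fold. In that comparison 4 members were higher and 6 lower at an edgeR quasi-likelihood adjusted p under 0.05, where 59.0% of all tested genes were called. In cKO versus APP/PS1 5 members were higher, 1 was lower and 4 were not called, beside 55.0% of all genes. cKO versus WT gave 4 higher, 4 lower and 2 not called, beside 47.7%. The count of members called is to be read against these shares of all genes. The split into higher and lower depended on the scaling: with length and GC offsets it was 2 and 6, 8 and 1, and 3 and 4 members in the same order, and on log2(TPM + 1) it was 0 and 8, 8 and 0, and 2 and 7. The split of all called genes moved as well: with the offsets 48.4%, 51.3% and 55.4% of calls were higher, and on log2(TPM + 1) 14.7%, 75.3% and 19.9%, against 45.7%, 49.6% and 51.9% with TMM. Of 14696 genes the offsets called 7975, 7709 and 7136, and log2(TPM + 1) called 11346, 9062 and 9028. With TMM no member reached a 1.5-fold change in any comparison, which 19.3%, 17.5% and 12.8% of all genes did in the same order. On log2(TPM + 1), where the median of all genes in APP/PS1 versus WT moved to -0.35, Slc11a2 (-0.71), Slc40a1 (-0.70), Tfrc (-0.66) and Hmox1 (-0.65) lay beyond 1.5-fold in that comparison, and between 0.30 and 0.36 below that median. Median absolute log2 changes of the members were 0.28, 0.16 and 0.19, beside 0.25, 0.23 and 0.19 over all tested genes. The 3 comparisons share libraries, so their values are given side by side and are not separate evidence.

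**Figure D1:**
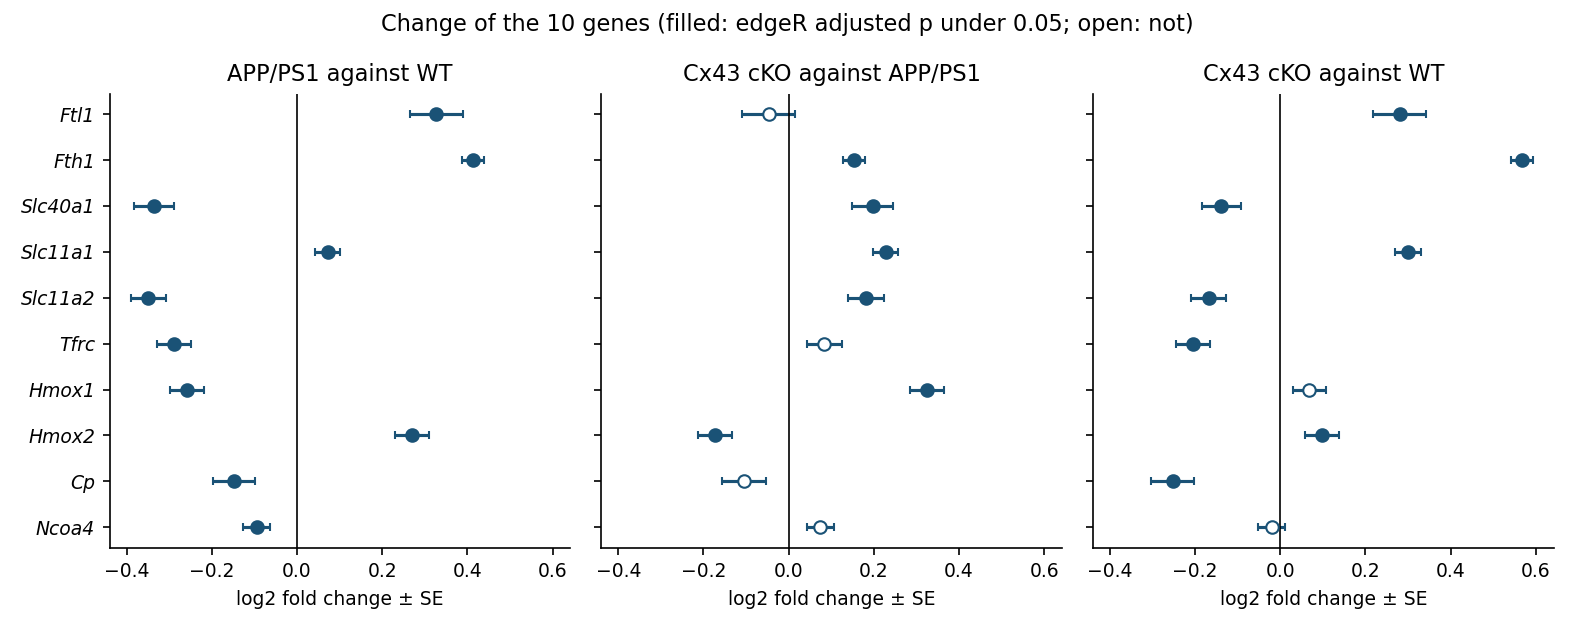
Log2 change (x axis, with SE as the bar) of the 10 members in the 3 comparisons, from the edgeR fit of 9 libraries, with filled points at an adjusted p under 0.05. Fth1 in cKO versus WT, at 0.57, lies farthest from 0, and all 10 points of APP/PS1 versus WT are filled.

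Compared per transcript length, in TPM, which divides counts by length and gives every library the same sum, ferritin messages were far above the rest. In WT Fth1 stood at 5481 TPM ± 99.1 and Ftl1 at 3957 TPM ± 194 (SD, n = 3). Slc11a1 followed at 231 TPM, then Hmox1 at 181, Hmox2 at 129, Ncoa4 at 115, Slc11a2 at 64.3, Slc40a1 at 53.6, Tfrc at 41.7 and Cp at 33.5. No neighbours in that order overlapped between libraries in WT or in cKO, which had the same order. In APP/PS1 Hmox2 (118 TPM, range 116 to 120.1) and Hmox1 (115 TPM, range 110.5 to 119) overlapped, with Hmox2 nominally above, and the other neighbours stayed apart.

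**Figure D2:**
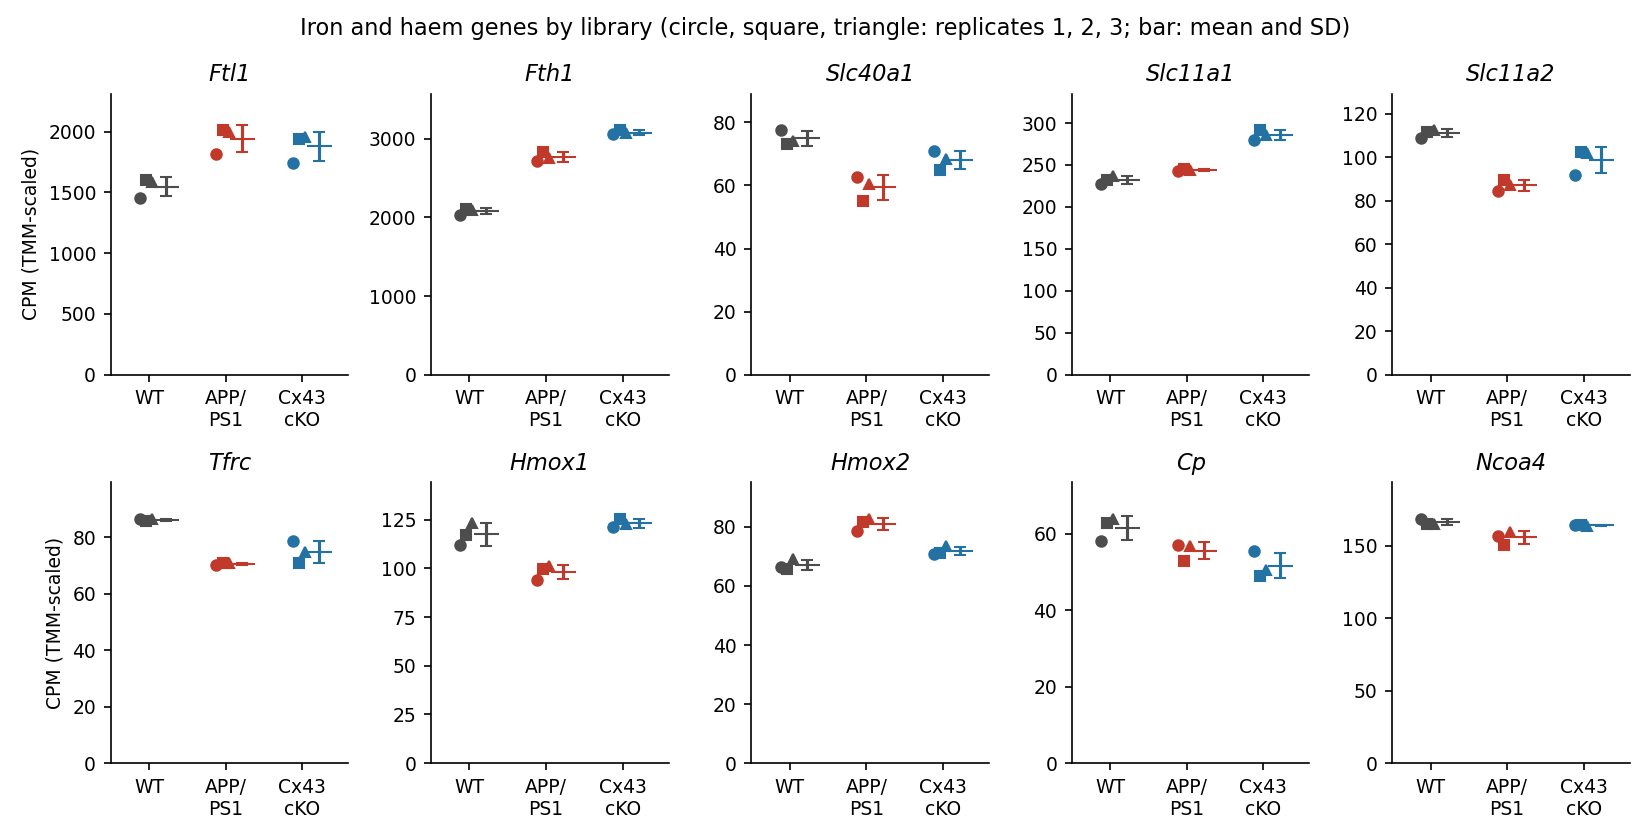
Level of each member in CPM (y axis, linear, scaled per gene) in the 3 libraries of WT, APP/PS1 and cKO. Points are libraries and horizontal bars are group means; Fth1 rises from a mean of 2078 in WT to 3078 in cKO, while Slc40a1, Slc11a2 and Tfrc are lowest in APP/PS1.

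Ferritin heavy chain, the subunit with ferroxidase activity, was highest in cKO. Fth1 measured 2033, 2112 and 2088 CPM in libraries 1 to 3 of WT, with 2712, 2830 and 2756 for APP/PS1 and 3054, 3108 and 3072 for cKO. The 3 groups did not overlap (groups did not overlap for 63.5% of all genes in APP/PS1 versus WT, 59.7% in cKO versus APP/PS1 and 54.6% in cKO versus WT). Its log2 change was 0.57 in cKO versus WT (SE 0.025, edgeR adjusted p = 2.78e-16) and 0.15 in cKO versus APP/PS1 (SE 0.025, edgeR adjusted p = 1.04e-05). Both calls held in 24 of 25 alternatives, the exception being the demand for a 1.5-fold change, but their sizes moved, to 0.37 and 0.35 on log2(TPM + 1).

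Ferritin light chain, the subunit that helps the mineral core form, was higher in both transgenic groups than in WT with TMM scaling. Ftl1 measured 1457, 1600 and 1584 CPM in WT, with 1813, 2013 and 1997 for APP/PS1 and 1741, 1940 and 1956 for cKO. Library 1 was the lowest of each group, and the APP/PS1 and cKO libraries overlapped. Against WT the log2 change was 0.28 in cKO (SE 0.062, edgeR adjusted p = 0.00683), but on log2(TPM + 1) it was 0.082 and not called (limma adjusted p = 0.220). The median of all genes moved to -0.17 there, and Ftl1 lay 0.25 above it. Between cKO and APP/PS1 the log2 change was -0.047 (SE 0.062, edgeR adjusted p = 0.567), and without cKO replicate 1 it was 0.0059.

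The increase of both ferritin chains in APP/PS1 over WT depended on how transcript length and GC content, which were corrected together, were treated. With TMM scaling the log2 change was 0.41 for Fth1 (SE 0.025, edgeR adjusted p = 1.42e-13) and 0.33 for Ftl1 (SE 0.062, edgeR adjusted p = 0.00230), but with offsets for transcript length and GC content it was -0.037 (edgeR adjusted p = 0.110) and -0.031 (edgeR adjusted p = 0.568). Ferritin transcripts are short, 929 nt for Fth1 and 968 nt for Ftl1, and fall in the shortest of 10 length bins (142 to 1094 nt, 1442 genes). The median gene of that bin changed on the log2 scale by 0.48 in APP/PS1 versus WT, -0.42 in cKO versus APP/PS1 and 0.12 in cKO versus WT. Both ferritin values in APP/PS1 versus WT, 0.41 and 0.33, were thus below the median of their length bin. In cKO versus APP/PS1 the same offsets raised the change of Fth1 to 0.51 (edgeR adjusted p = 7.95e-20) and turned that of Ftl1 to 0.27 (edgeR adjusted p = 0.000415).

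On log2(TPM + 1), the median over all genes in APP/PS1 versus WT moved to -0.35. There Fth1 was at 0.020 and Ftl1 at -0.066, which is 0.37 and 0.28 above that median. Together the ferritin pair took 0.383% of all counts in WT, 0.453% in APP/PS1 and 0.487% in cKO. Ferritin genes have many near-identical processed copies in the genome. The only other ferritin-named row, Fthl17c, had at most 2 counts, and how reads shared between copies were counted is not stated, so ferritin levels are uncertain to that extent.

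**Figure D3:**
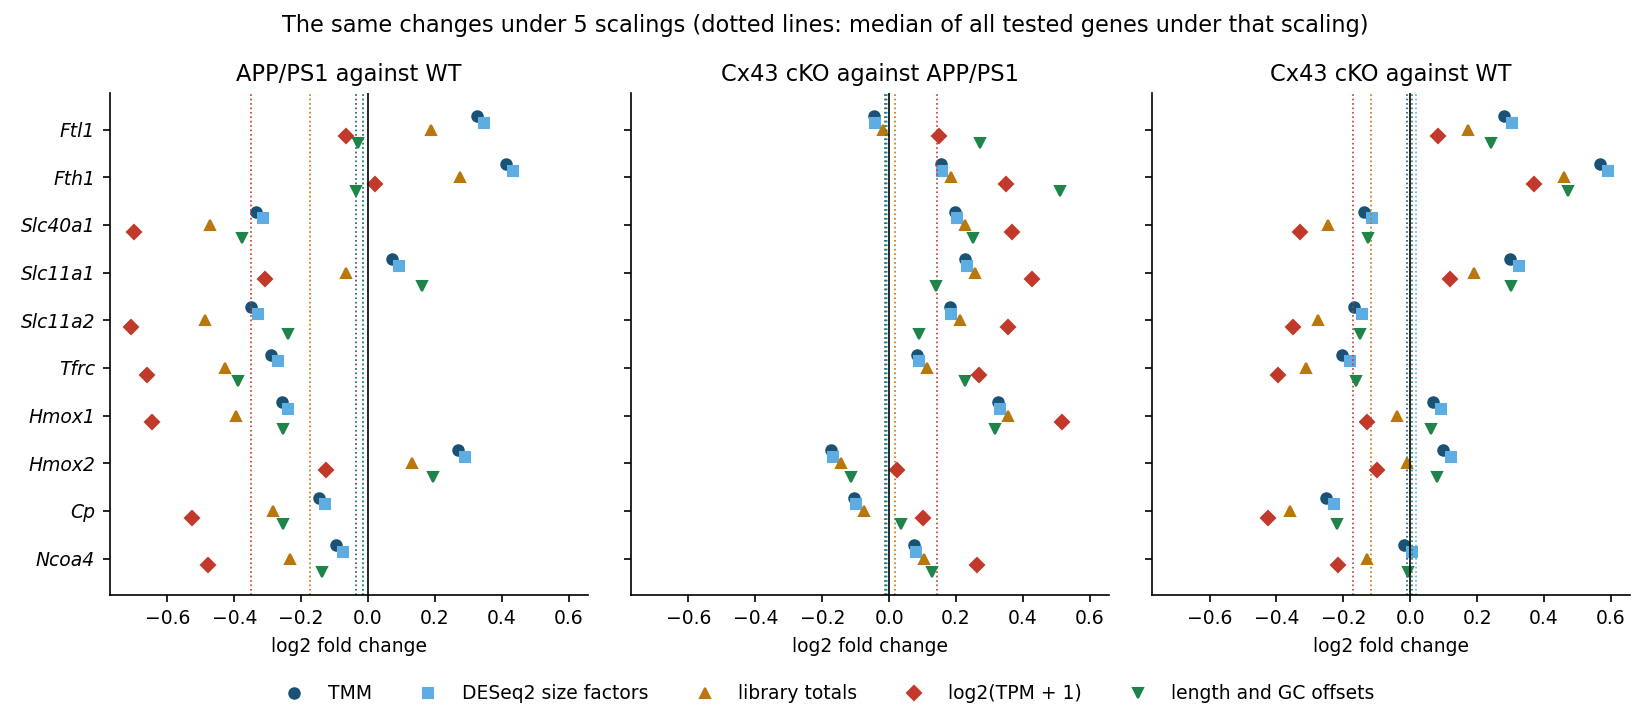
Log2 change of each member under 5 treatments of the same 9 libraries (TMM, DESeq2 size factors, library totals, log2(TPM + 1), and offsets for length and GC content) in the 3 comparisons, with dotted lines at the median of all genes. Ftl1 and Fth1 in APP/PS1 versus WT fall to near 0 with the offsets, whereas Slc40a1, Slc11a2 and Tfrc stay below 0 under each treatment.

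Ncoa4, which delivers ferritin for breakdown when iron is needed, was lowest in APP/PS1. It measured 169, 165 and 165 CPM in WT, with 157, 151 and 159 for APP/PS1 and 164.2, 164.02 and 163.8 for cKO. All APP/PS1 libraries were below the others, with a log2 change of -0.094 against WT (SE 0.032, edgeR adjusted p = 0.0133). That call was lost without APP/PS1 replicate 2 (-0.071, edgeR adjusted p = 0.0867) or WT replicate 1 (-0.084, edgeR adjusted p = 0.0503), with the DESeq2 Wald test (-0.076, adjusted p = 0.105), and in a fit of only the 6 libraries compared (-0.059, edgeR adjusted p = 0.134). It was larger with length and GC offsets (-0.14, edgeR adjusted p = 0.000143), when scaled by library totals alone (-0.23, adjusted p = 5.18e-07 in edgeR) and on log2(TPM + 1) (-0.48, limma adjusted p = 9.31e-08), the last of these 0.13 below the median of all genes. The change in cKO versus APP/PS1 was 0.074 (SE 0.032, edgeR adjusted p = 0.0523). It passed in 10 of 25 alternatives, among them the offsets (0.13, edgeR adjusted p = 0.000331), log2(TPM + 1) (0.26, limma adjusted p = 1.68e-05) and leaving out APP/PS1 replicate 3 (0.090, edgeR adjusted p = 0.0476). Against WT, cKO was at -0.020 (edgeR adjusted p = 0.639), but passed when scaled by library totals alone (-0.13, adjusted p = 0.00141 in edgeR) and on log2(TPM + 1) (-0.22, limma adjusted p = 0.000111), where the median of all genes moved to -0.12 and -0.17.

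Messages of the transferrin route of iron entry, Tfrc and Slc11a2, were lower in APP/PS1 than in WT. Tfrc, which takes up transferrin, measured 86.3, 85.8 and 86.6 CPM in WT, with 70.1, 70.8 and 70.7 for APP/PS1 and 78.7, 71.0 and 74.7 for cKO. WT libraries were above all others without overlap. Its log2 change was -0.29 in APP/PS1 (SE 0.040, edgeR adjusted p = 7.96e-07) and -0.21 in cKO (SE 0.040, edgeR adjusted p = 0.000121), each against WT, and both held in 24 of 25 alternatives, all but the 1.5-fold demand, with sizes of -0.66 and -0.39 on log2(TPM + 1). In cKO versus APP/PS1 it was 0.084 and not called (SE 0.041, edgeR adjusted p = 0.0884). Without cKO replicate 2 that value was 0.12 (edgeR adjusted p = 0.0251), and with length and GC offsets it was 0.23 (edgeR adjusted p = 6.24e-06). Red cell precursors are rich in Tfrc, and the erythroid marker sum (1276, 263 and 108 CPM in WT, APP/PS1 and cKO) was also highest in WT; its part in the result was not tested.

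Slc11a2, which passes ferrous iron out of endosomes, differed in all 3 comparisons. Its levels were 109, 112 and 112 CPM in WT, with 84.6, 89.5 and 87.5 for APP/PS1 and 91.8, 103 and 102 for cKO, so that cKO lay between the others without overlap. The log2 change was -0.35 in APP/PS1 versus WT (SE 0.041, edgeR adjusted p = 4.93e-08), 0.18 in cKO versus APP/PS1 (SE 0.042, edgeR adjusted p = 0.000654) and -0.17 in cKO versus WT (SE 0.041, edgeR adjusted p = 0.00121). Every alternative other than the 1.5-fold demand kept these calls, but not their sizes, which were -0.71, 0.36 and -0.35 on log2(TPM + 1), and the increase over APP/PS1 was 0.089 with length and GC offsets (edgeR adjusted p = 0.0411).

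Slc11a1, the phagosomal transporter that withholds metals from engulfed microbes, was highest in cKO. It measured 227, 232 and 237 CPM in WT, with 243, 245 and 244 for APP/PS1 and 279.8, 291 and 286 for cKO. The increase was 0.23 over APP/PS1 (SE 0.030, edgeR adjusted p = 2.91e-07) and 0.30 over WT (SE 0.030, edgeR adjusted p = 3.09e-09), and both held in 24 of 25 alternatives, although the first was 0.14 with length and GC offsets and 0.43 on log2(TPM + 1), and the second 0.12 on log2(TPM + 1). APP/PS1 was above WT by 0.072 with TMM (SE 0.030, edgeR adjusted p = 0.0413) and by 0.16 with length and GC offsets (edgeR adjusted p = 4.88e-06), but the sign turned with library totals (-0.066), with FPKM (-0.055) and with log2(TPM + 1) (-0.31, limma adjusted p = 7.85e-07), and the call was lost when any of APP/PS1 replicates 1, 2 and 3, WT replicates 1 and 2, or cKO replicate 3 was left out (edgeR adjusted p from 0.0527 to 0.152). With library totals, log2(FPKM + 1) and log2(TPM + 1) the median of all genes moved to -0.17, -0.11 and -0.35. Slc11a1 lay above that median by 0.11, 0.060 and 0.040 in the same order. Neutrophils and monocytes also express Slc11a1. Their marker sums were highest in cKO (9554 and 707 CPM), as Slc11a1 was, but lower in APP/PS1 (971 and 98.3 CPM) than in WT (3222 and 387 CPM), and their part in the result was not tested.

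Ferroportin, the only known cellular iron exporter, was lowest in APP/PS1. Slc40a1 measured 77.5, 73.1 and 74.2 CPM in WT, with 62.8, 55.0 and 60.4 for APP/PS1 and 70.9, 65.0 and 68.4 for cKO, with no overlap between the 3 groups. It was lower in APP/PS1 than in WT by a log2 change of -0.34 (SE 0.048, edgeR adjusted p = 1.02e-06) and higher in cKO than in APP/PS1 by 0.20 (SE 0.048, edgeR adjusted p = 0.00117), and both calls held in 24 of 25 alternatives, with sizes of -0.70 and 0.37 on log2(TPM + 1). In cKO versus WT it was -0.14 (SE 0.047, edgeR adjusted p = 0.0166), which was lost without cKO replicate 2 (-0.10, edgeR adjusted p = 0.110) or WT replicate 1 (-0.11, edgeR adjusted p = 0.0770) and with the DESeq2 Wald test (-0.11, adjusted p = 0.149).

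Ceruloplasmin oxidises the iron that ferroportin releases and in brain is best known from astrocytes. Cp measured 58.0, 62.8 and 64.0 CPM in WT, with 57.0, 52.9 and 56.9 for APP/PS1 and 55.5, 49.1 and 50.6 for cKO. WT was above both transgenic groups, which overlapped with each other. Its log2 change against WT was -0.25 in cKO (SE 0.051, edgeR adjusted p = 0.000165), which held in 24 of 25 alternatives and was -0.43 on log2(TPM + 1). In APP/PS1 it was -0.15 (SE 0.050, edgeR adjusted p = 0.0135), and this was lost without APP/PS1 replicate 2 (-0.11, edgeR adjusted p = 0.0866), WT replicate 2 (-0.13, edgeR adjusted p = 0.0503) or WT replicate 3 (-0.12, edgeR adjusted p = 0.0803), and with the DESeq2 Wald test (-0.13, adjusted p = 0.0996). The decrease was larger with length and GC offsets (-0.25, edgeR adjusted p = 1.80e-05) and with library totals (-0.29, edgeR adjusted p = 1.91e-05). On log2(TPM + 1) it was -0.53 (limma adjusted p = 3.81e-06), 0.18 below the median of all genes. cKO versus APP/PS1 gave -0.10 (SE 0.052, edgeR adjusted p = 0.0902), which passed without cKO replicate 1 (-0.16, edgeR adjusted p = 0.0159) or APP/PS1 replicate 2 (-0.14, edgeR adjusted p = 0.0405), and turned to 0.035 with length and GC offsets (edgeR adjusted p = 0.562) and to 0.10 on log2(TPM + 1) (limma adjusted p = 0.119). Astrocyte markers (10 genes) summed to 494 CPM in WT, with 697 for APP/PS1 and 536 for cKO, and choroid plexus markers (6 genes) to 447, 1180 and 606 CPM. The part of these cells in the result was not tested.

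Hmox1, the haem oxygenase that haem and oxidative stress induce, was lowest in APP/PS1. It measured 112, 117 and 123 CPM in WT, with 94.0, 99.6 and 101 for APP/PS1 and 121, 126 and 123 for cKO. APP/PS1 did not overlap either group, while WT and cKO overlapped. The log2 change was -0.26 in APP/PS1 versus WT (SE 0.040, edgeR adjusted p = 3.44e-06) and 0.33 in cKO versus APP/PS1 (SE 0.040, edgeR adjusted p = 1.01e-07), and both held in 24 of 25 alternatives, with sizes of -0.65 and 0.52 on log2(TPM + 1). cKO versus WT gave 0.068 (SE 0.039, edgeR adjusted p = 0.158), which passed without WT replicate 3 (0.11, edgeR adjusted p = 0.0480) and had the opposite sign when TPM was used (-0.13, limma adjusted p = 0.0159). On TPM the median of all genes moved to -0.17 in that comparison, and Hmox1 lay 0.042 above it. Border macrophages are also rich in haem-handling genes. Their markers (7 genes) summed to 545 CPM in WT, with 414 for APP/PS1 and 358 for cKO. The markers did not all move together. From WT to APP/PS1, Pf4 (17.2 to 25.8 CPM) and Ms4a7 (12.0 to 27.9 CPM) rose, while Mrc1, Cd163, Lyve1, F13a1 and Cbr2 fell. The part of border macrophages in the result was not tested.

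Hmox2, the constitutive enzyme, was highest in APP/PS1 when scaled by TMM. It measured 66.6, 65.6 and 69.2 CPM in WT, with 78.5, 81.5 and 82.8 for APP/PS1 and 70.9, 71.1 and 73.4 for cKO, with no overlap between groups. In APP/PS1 versus WT its log2 change was 0.27 with TMM (SE 0.040, edgeR adjusted p = 1.76e-06) but -0.12 on log2(TPM + 1) (limma adjusted p = 0.00649), where it was still 0.22 above the median of all genes. In cKO versus APP/PS1 it was -0.17 with TMM (SE 0.040, edgeR adjusted p = 0.000602) and 0.024 with log2(TPM + 1) (limma adjusted p = 0.573). The change in cKO versus WT, 0.097 (SE 0.040, edgeR adjusted p = 0.0484), was lost when any library other than WT replicate 3 was left out (edgeR adjusted p from 0.0512 to 0.164) and had the opposite sign when TPM was used (-0.10, limma adjusted p = 0.0261). On TPM the median of all genes moved to -0.17 in that comparison, and Hmox2 lay 0.069 above it.

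Ratios between members within a library do not depend on how libraries are scaled to each other, and 4 ratios of TPM were compared in 12 two-sided exact permutation tests. With 3 libraries against 3 the smallest p is 0.1, so none could pass 0.05, and the smallest Benjamini-Hochberg value over the 12 was 0.2. Hmox1 over Hmox2 was 1.34, 1.47 and 1.41 in WT, with 0.956, 0.986 and 0.989 for APP/PS1 and 1.36, 1.40 and 1.37 for cKO. APP/PS1 lay below both other groups without overlap, with a log2 difference of -0.52 from WT (SE 0.040, exact permutation p = 0.1, adjusted 0.2), and cKO differed from APP/PS1 by 0.50 (SE 0.021, exact permutation p = 0.1, adjusted 0.2). cKO and WT overlapped and differed by -0.027 (SE 0.039, exact permutation p = 0.6, adjusted 0.655), a value that ran from -0.060 to 0.0031 as single libraries were left out.

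Light over heavy ferritin chain, Ftl1 over Fth1, was 0.695, 0.735 and 0.735 in WT, with 0.648, 0.690 and 0.702 for APP/PS1 and 0.553, 0.605 and 0.617 for cKO. cKO lay below both other groups, by a log2 difference of -0.20 from APP/PS1 (SE 0.060, exact permutation p = 0.1, adjusted 0.2) and -0.29 from WT (SE 0.056, exact permutation p = 0.1, adjusted 0.2). APP/PS1 and WT overlapped and differed by -0.086 (SE 0.044, exact permutation p = 0.2, adjusted 0.24), or -0.11 to -0.052 as single libraries were left out. Both transcripts fall in the same length bin.

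Slc11a1 over Slc11a2 was 3.58, 3.53 and 3.65 in WT, with 4.88, 4.64 and 4.78 for APP/PS1 and 5.22, 4.91 and 4.84 for cKO. Both transgenic groups lay above WT, by a log2 difference of 0.41 (SE 0.026) and 0.48 (SE 0.036), each at an exact permutation p of 0.1 and 0.2 adjusted. They overlapped with each other, differing by 0.066 (SE 0.040, exact permutation p = 0.2, adjusted 0.24), or 0.033 to 0.088 as single libraries were left out. Export over uptake, Slc40a1 over Tfrc, was 1.28 ± 0.0345 in WT, 1.25 ± 0.0904 in APP/PS1 and 1.34 ± 0.0232 in cKO (SD, n = 3). All 3 groups overlapped in pairs for that ratio, with exact permutation p-values of 0.9, 0.2 and 0.2 (0.9, 0.24 and 0.24 adjusted). Its log2 difference between cKO and APP/PS1 was 0.10, and ran from 0.043 to 0.15 without single libraries; that between cKO and WT was 0.067, and ran from 0.055 to 0.089; that between APP/PS1 and WT was -0.035, and ran from -0.078 to 0.024.

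**Figure D4:**
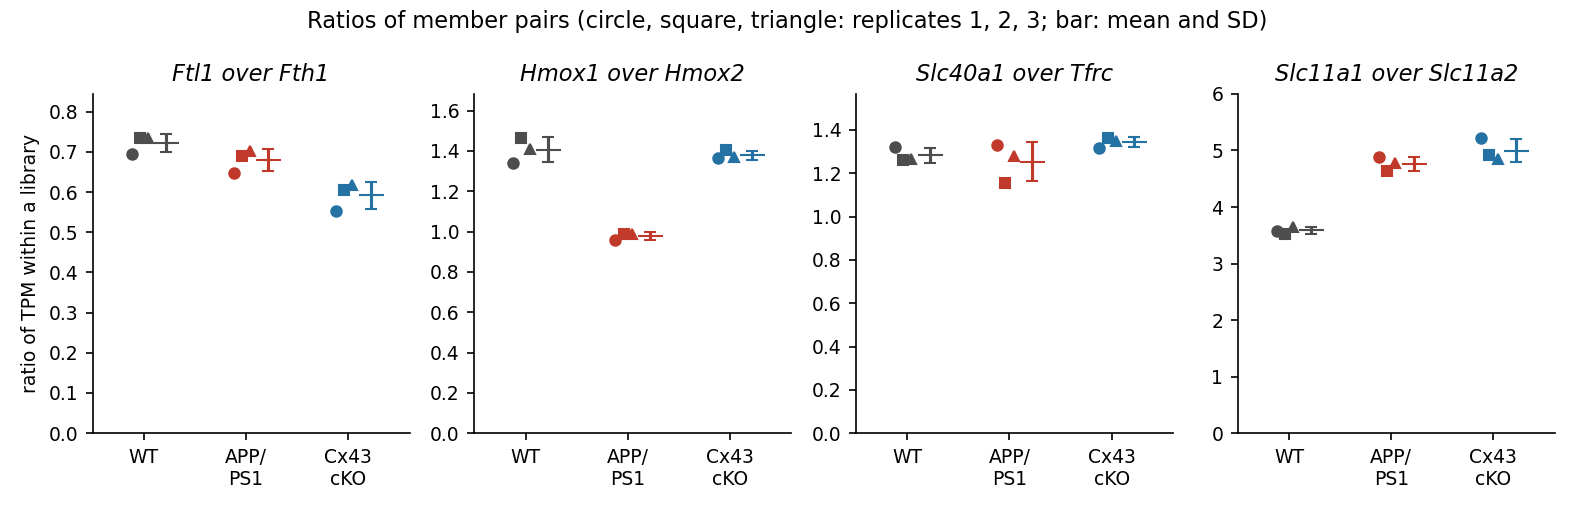
Ratios of TPM between pairs of members (y axis, no unit) in each library of WT, APP/PS1 and cKO, with bars at the group means. Hmox1 over Hmox2 is below 1 in each APP/PS1 library and at least 1.34 in the other libraries, and Ftl1 over Fth1 is lowest in the cKO libraries.

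The wider pathway was described with 5 lists of 79 further genes, of which 76 were in the table and 70 were tested. In APP/PS1 versus WT 23 were higher and 28 lower, beside 26.9% and 32.0% of all genes; in cKO versus APP/PS1 24 were higher and 28 lower, beside 27.3% and 27.7%; and in cKO versus WT 14 were higher and 21 lower, beside 24.7% and 23.0%. These splits moved with the scaling, to 13 and 40, 25 and 26, and 10 and 35 with library totals and to 9 and 51, 37 and 16, and 9 and 46 on log2(TPM + 1).

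Of 18 tested genes for iron uptake, release and transport inside the cell, 3 were higher and 9 lower in APP/PS1 than in WT (median log2 change -0.22, beside -0.036 over all genes, of which 26.9% were higher and 32.0% lower), and 12 were higher and 3 lower in cKO than in APP/PS1 (median 0.16, beside -0.011 over all genes, of which 27.3% were higher and 27.7% lower). In cKO versus WT 5 were higher and 4 lower (median 0.022), beside 24.7% and 23.0% of all genes. The widest movers were Ltf, lactoferrin, and Lcn2, which binds bacterial siderophores. Ltf averaged 336 CPM in WT, with 55.6 for APP/PS1 and 1298 for cKO, with a log2 change of -2.59 and then 4.54 (edgeR adjusted p = 9.97e-29 and 4.76e-34). Lcn2 averaged 154, 36.2 and 586 CPM. Both are granule genes of neutrophils and belong to the neutrophil markers, whose sums are given above, and the part of neutrophils in these values was not tested. Slc25a37, mitoferrin, which takes iron into mitochondria and is abundant in red cell precursors and neutrophils, averaged 110 CPM in WT, with 64.9 for APP/PS1 and 81.8 for cKO, a log2 change of -0.42 in cKO versus WT (edgeR adjusted p = 2.16e-10).

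Among 11 tested genes of iron sensing and the hepcidin axis, 2 were higher and 5 lower in APP/PS1 than in WT (median log2 change -0.077), beside 26.9% and 32.0% of all genes. In cKO 3 were higher and 5 lower than in APP/PS1 (median 0.023), beside 27.3% and 27.7%, and 1 was higher and 4 lower than in WT (median -0.13), beside 24.7% and 23.0%. Fbxl5, the iron-sensing ligase subunit that removes iron regulatory protein, was at 75.6 CPM in WT, with 69.2 for APP/PS1 and 116 for cKO. It rose in cKO by 0.75 over APP/PS1 (SE 0.042, edgeR adjusted p = 3.15e-14) and by 0.62 over WT (SE 0.042, edgeR adjusted p = 1.65e-12), and by 0.80 and 0.62 with length and GC offsets. Bach1, the haem-sensing repressor of Hmox1 and the ferritin genes, fell from 582 CPM in WT to 437 in APP/PS1 (log2 change -0.41, SE 0.028, edgeR adjusted p = 8.09e-13). Hfe, which helps set hepcidin, fell in cKO versus WT by 0.39 on the log2 scale (SE 0.040, edgeR adjusted p = 4.63e-09).

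For uptake, export and breakdown of haem, 12 genes were tested. Of these 5 were higher and 5 lower in APP/PS1 than in WT (median log2 change 0.0054), 4 were higher and 5 lower in cKO than in APP/PS1 (median -0.17), and 3 were higher and 5 lower in cKO than in WT (median -0.097), beside the same shares of all genes. Blvra, the biliverdin reductase that acts after haem oxygenase, averaged 15.0 CPM in WT, with 31.4 for APP/PS1 and 16.9 for cKO, with a log2 change of 1.07 in APP/PS1 versus WT (SE 0.062, edgeR adjusted p = 3.47e-14) that was 0.81 with length and GC offsets. Hebp1, which binds haem, averaged 34.8, 39.7 and 104 CPM and rose in cKO by 1.38 over APP/PS1 (SE 0.044, edgeR adjusted p = 1.11e-19). Hp, haptoglobin, which captures free haemoglobin and is also a neutrophil granule product, averaged 73.8, 12.2 and 166 CPM. Cd163, the scavenger receptor for haptoglobin-bound haemoglobin and a border macrophage marker, averaged 95.8, 71.0 and 63.1 CPM.

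Of 12 tested genes of haem synthesis, 2 were higher and 7 lower in APP/PS1 than in WT (median log2 change -0.24, beside -0.036 over all genes, of which 32.0% were lower). In cKO 4 were higher and 4 lower than in APP/PS1 (median -0.012, beside 27.3% and 27.7% of all genes), and 1 was higher and 7 lower than in WT (median -0.22, beside -0.0086 over all genes, of which 23.0% were lower). Alas2, the erythroid form of the first enzyme, averaged 24.1 CPM in WT, with 2.97 for APP/PS1 and 2.24 for cKO, in the same order as the erythroid marker sum, of which it is a member. Alas1, the form used by other cells, averaged 79.8, 75.4 and 112 CPM and rose in cKO by 0.57 over APP/PS1 (SE 0.041, edgeR adjusted p = 4.20e-12).

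Of 17 tested genes that assemble iron-sulfur clusters, 11 were higher and 2 lower in APP/PS1 than in WT (median log2 change 0.29, beside -0.036 over all genes, of which 26.9% were higher), 1 was higher and 11 lower in cKO than in APP/PS1 (median -0.24, beside -0.011 over all genes, of which 27.7% were lower), and 4 were higher and 1 lower in cKO than in WT (median 0.043, beside 24.7% and 23.0% of all genes). With length and GC offsets the first count was 7 higher and 2 lower (median 0.11) and the second 1 higher and 8 lower (median -0.084). The choroid plexus (447, 1180 and 606 CPM) and astrocyte (494, 697 and 536 CPM) marker sums of WT, APP/PS1 and cKO were also highest in APP/PS1, and their part in the result was not tested. Hscb, a co-chaperone of cluster transfer, averaged 6.84 CPM in WT, with 15.9 for APP/PS1 and 8.80 for cKO; its log2 change in APP/PS1 versus WT was 1.22 (SE 0.085, edgeR adjusted p = 1.77e-12), and 0.69 with the offsets. Cisd1, a cluster protein of the outer mitochondrial membrane, averaged 7.28, 15.0 and 8.52 CPM, with a change of 1.05 (SE 0.088, edgeR adjusted p = 9.27e-11), and 0.57 with the offsets.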

How the data were processed

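Poly-A RNA was sequenced as single-end reads of 50 bases, per the labels' protocols. The submitters' processing notes name HISAT, Bowtie2, DESeq2 and GRCm38.p6, with no versions or roles. The deposited table gives per library an estimated count, an FPKM and a TPM, per the file headers; a deposited normalised signal (normalised read count) and the group averages were not used. Every per-sample column matched a library by name. The members and gene lists were chosen with earlier results of these data known.

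Estimated counts were rounded and tested with the edgeR 4.0.16 quasi-likelihood test (R 4.3.3; TMM scaling, filterByExpr, robust, all 9 libraries, a mean per group). Adjusted p is Benjamini-Hochberg over the 14696 tested genes, with a threshold of 0.05; CPM uses TMM-scaled totals. The design had assumed plain counts. Alternatives used limma 3.58.1, DESeq2 1.42.0, other scalings, filters and thresholds, and offsets by 10 bins of length and 10 of GC content (GENCODE M21; 96.4% of genes). Ratios used log2(TPM + 0.1) and exact permutation tests (SciPy 1.17.1). The steps were tested on simulated data.

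Genes outside the members were named as the widest called changes in each direction of a list, without overlap between groups, and only some of those are printed. Gene positions and names came from RefSeq on GRCm38.p6. No pair of replicates agreed within sampling noise, the mean chi-square per gene being 1.80 to 3.54 over 9 pairs.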

Additional observations from a re-analysis of the deposited data

How the results depend on the processing

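Over the members and comparisons, 629 alternative values kept direction and call, 64 lost the call, 29 gained one and 28 changed sign. For each sign change the cause was not tested, unless named. Requiring a 1.5-fold change, a stricter rule by construction, left 0, 0 and 0 members, 18, 15 and 10 pathway genes (from 51, 52 and 35) and 2834, 2566 and 1877 of all genes (from 8670, 8085 and 7010) in APP/PS1 versus WT, cKO versus APP/PS1 and cKO versus WT. On TPM 55 pathway genes were called in cKO versus WT, where 9028 of 14696 genes were called and the median of all genes moved to -0.17. The share of calls that were higher in the 3 comparisons was 45.7%, 49.6% and 51.9% with TMM, 29.5%, 54.8% and 30.4% with library totals, and 14.7%, 75.3% and 19.9% on TPM.

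In APP/PS1 versus WT, library totals gave -0.066 for Slc11a1 and -0.00068 for Nfe2l2 (a pathway gene, as are Bmp6 and Clpx), FPKM gave -0.055 and -0.00090 with a pseudocount of 1 and -0.055 and -0.00091 with 0.1, and TPM gave -0.31 and -0.25. TPM also gave -0.048 for Bmp6, -0.12 for Hmox2, -0.14 for Gja1, -0.066 for Ftl1 and -0.19 for Clpx. Length and GC offsets gave -0.031 for Ftl1 and -0.037 for Fth1. With the replicate block as well these were -0.032 (edgeR adjusted p = 0.0630) and -0.037 (edgeR adjusted p = 0.0478), so that Fth1 was then called lower. In cKO versus APP/PS1 the offsets gave 0.27 for Ftl1 and 0.035 for Cp, and 0.27 and 0.035 with the block, while TPM gave 0.15 for Ftl1, 0.10 for Cp and 0.024 for Hmox2. In cKO versus WT, Hmox2 was -0.010 with library totals, -0.011 on FPKM with either pseudocount and -0.10 on TPM. Hmox1 was -0.040, -0.038, -0.039 and -0.13 in the same order, pseudocount 1 before 0.1. Ncoa4 was 0.0048 with DESeq2 size factors and 0.0055 with the DESeq2 Wald test.

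Without single libraries Ftl1 ran from -0.092 to 0.0059 in cKO versus APP/PS1, the log2 ratio of Hmox1 over Hmox2 ran from -0.060 to 0.0031 in cKO versus WT, and that of Slc40a1 over Tfrc ran from -0.078 to 0.024 in APP/PS1 versus WT. Without replicate 1 of every group, chosen after seeing the data because Ftl1 was lowest there, 9, 7 and 7 members were called, beside 10, 6 and 8. All genes called were then 8026, 7456 and 6427 of 14730, beside 8670, 8085 and 7010 of 14696.

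Blocking on the replicate number, 9319, 8851 and 7934 genes and 10, 9 and 9 members were called. The members gained were Ncoa4 (edgeR adjusted p = 0.00564), Tfrc (0.0270) and Ftl1 (-0.047, 0.00381) in cKO versus APP/PS1 and Hmox1 (0.0258) in cKO versus WT. Libraries share only a number: deviations from the group means correlated at 0.062 to 0.26 in same-numbered pairs, over 0.1 in 7 of 9, and the own number gave the highest value in 17 of 18 comparisons, a hint from the data and not the design. Paired by number, the smallest exact p of a ratio is 0.25. The number of libraries, 3 a group, limits the precision of every value.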
